A study of Mus musculus with 46 samples.

Results

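The genes described here encode 5 small membrane proteins that interferons induce: Ifitm1, Ifitm2, Ifitm3, Bst2 and Ifi27. They are 5 of the 24537 genes in each of 8 gene tables, and were found by their symbols in the annotation column. The set was chosen by the membrane location and interferon induction of its members, and its make-up was also selected on measured values, because the responses of Ifi27 and Ifitm3 were known to differ from those of other interferon genes in some experiments. Ifi27 and Ifitm3 are therefore given as values and differences with no test. Bst2, Ifitm1 and Ifitm2 were tested wherever they passed a filter on low values.

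The libraries came from a mouse study of Arid1a loss. Arid1a encodes a subunit of SWI/SNF, a complex that moves nucleosomes along chromatin. All groups used here had 2 polyA RNA libraries, 42 libraries in 21 groups; total RNA libraries for repeats are not used here. B16F10 melanoma cells carried sgScramble, a control guide, or sgArid1a. Subcutaneous B16F10 tumors of both guides were taken on day 15. In culture, cells of both guides were labelled as given PBS or murine interferon gamma (IFNγ) for 24 h, as untreated, or as given DMSO for 72 h. Further sgArid1a cultures received an antibody to the type I interferon receptor (anti-IFNAR) or ruxolitinib, an inhibitor of the kinases JAK1 and JAK2, each for 72 h. Untreated cultures with the genotypes sgArid1a/sgCgas and sgArid1a/sgSting lacked, per their labels, a DNA sensor or its adaptor as well. Their cell line was entered as B16F11 to B16F14, while their titles name B16F10. The compound BD98 was given for 72 h to sgScramble B16F10 cells, alone or with anti-IFNAR, against DMSO. MC38 colon carcinoma cells carried sgScramble or sgArid1a without treatment. Mouse embryonic fibroblasts (MEFs) that were Arid1a fl/fl had received ethanol (labelled WT) or tamoxifen (labelled Arid1a -/-) and were taken on day 5. The labels do not say whether guide-carrying cells were clones or pools, what drives the recombinase in the MEFs, or whether the 2 libraries of a group came from separate cultures or animals, so p-values measure only the spread between libraries.

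Type I interferons bind the receptor of Ifnar1 and Ifnar2, whose kinases activate a transcription factor complex with Irf9 that binds interferon-stimulated response elements (ISREs) near its target genes. IFNγ acts through another receptor and on gamma-activated sites (GAS). Ifitm proteins sit in endosomal and plasma membranes and hinder the fusion of enveloped viruses. Bst2, also called tetherin, holds budding virus particles to the cell surface and is a marker of plasmacytoid dendritic cells. Ifi27 is a small hydrophobic interferon-induced protein reported in mitochondria and at the nuclear envelope.

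Ifitm2 (NM_030694), Ifitm1 (NM_001112715) and Ifitm3 (NM_025378) lie side by side on mouse chromosome 7 of mm10, with gaps of 12.1 kb and 39.8 kb between them. The tables place Ifitm2 at 140954839 to 140955961 on the minus strand, Ifitm1 at 140968076 to 140969827 on the plus strand, and Ifitm3 at 141009590 to 141010744 on the minus strand. The tumor table alone gives Ifitm1 as another transcript, NM_026820, which starts at 140967429, so the first gap holds for the other tables. Bst2 (NM_198095) spans 71534262 to 71537437 of chromosome 8 on the minus strand, and Ifi27 (NM_026790) spans 103434189 to 103440245 of chromosome 12 on the plus strand. Values of the Ifitm genes are uncertain where reads fit more than 1 gene. Of the distinct 31-base words in Ifitm2 transcripts of GENCODE vM21, 55.5% also occur in another gene, mostly in Gm45717, an annotated gene that overlaps Ifitm2. The shares were 20.5% for Ifitm3 and 11.6% for Ifitm1, and 0 for Bst2 and Ifi27. The headers give no strand option for the counting.

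The promoter windows of 4 members were found in the RefSeq table (GRCm38.p6), each from 250 bases before to 50 bases after the start in that table. For Bst2 that start lies upstream of the end of NM_198095 given above, and its motif positions are counted from the RefSeq table's start. The windows are shown because the 3 members below, all well expressed, differed in how they responded in the comparisons that follow. A link between motifs and response was not tested, and Ifi27 had no window in the RefSeq table. Capitals mark each match to an ISRE core (GAAANNGAA) or a GAS core (TTCNNNGAA, which is its own reverse complement), searched on both strands, and matches that overlap run together. The windows are Bst2 at chr8:71537423-71537722, Ifitm3 at chr7:141010695-141010994 and Ifitm2 at chr7:140955912-140956211, each read 5′ to 3′ along the gene on the minus strand.
Bst2: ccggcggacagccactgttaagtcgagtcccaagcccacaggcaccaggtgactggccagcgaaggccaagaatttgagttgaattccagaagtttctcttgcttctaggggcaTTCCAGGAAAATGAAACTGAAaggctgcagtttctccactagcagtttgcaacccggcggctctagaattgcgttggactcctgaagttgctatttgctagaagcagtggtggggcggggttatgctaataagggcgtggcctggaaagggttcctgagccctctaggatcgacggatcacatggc
Ifitm3: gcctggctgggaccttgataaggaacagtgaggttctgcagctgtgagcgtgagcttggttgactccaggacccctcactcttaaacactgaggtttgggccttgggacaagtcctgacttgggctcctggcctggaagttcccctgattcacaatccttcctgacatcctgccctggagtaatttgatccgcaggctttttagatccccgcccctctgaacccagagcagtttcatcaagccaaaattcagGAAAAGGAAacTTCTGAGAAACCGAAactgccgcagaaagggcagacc
Ifitm2: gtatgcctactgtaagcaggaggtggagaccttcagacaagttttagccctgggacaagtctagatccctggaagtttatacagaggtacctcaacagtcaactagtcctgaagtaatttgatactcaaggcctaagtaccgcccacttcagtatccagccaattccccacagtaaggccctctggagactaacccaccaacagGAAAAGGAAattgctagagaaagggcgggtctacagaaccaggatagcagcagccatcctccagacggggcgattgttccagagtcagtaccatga
Bst2 held 2 overlapping ISRE cores, GAAAATGAA at -130 to -122 and GAAACTGAA at -124 to -116, and the GAS core TTCCAGGAA at -136 to -128, counted from the start site. Ifitm3 held the ISRE cores GAAAAGGAA at 3 to 11 and GAAACCGAA at 20 to 28, just downstream of its start, and the GAS core TTCTGAGAA at 14 to 22. Ifitm2 held 1 ISRE core, GAAAAGGAA at -46 to -38, the same 9 letters as the first of Ifitm3, and no GAS core. The window of Ifitm1 (chr7:140967826-140968125, plus strand) held neither motif. Over all 32851 windows in the table, 8.56% held an ISRE core and 8.30% a GAS core. These matches are letters in a window, not measured binding.

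**Figure D1:**
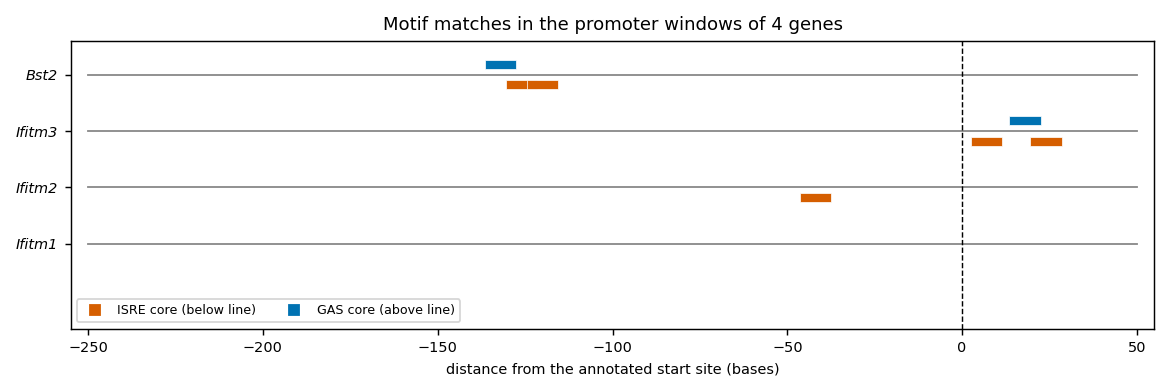
Positions of the motif matches in the promoter windows of 4 genes, by distance in bases from the annotated start site (dashed line); orange boxes below each line are ISRE cores and blue boxes above it GAS cores. Bst2 and Ifitm3 each have 2 ISRE cores and 1 GAS core, upstream of the start in Bst2 and downstream in Ifitm3, Ifitm2 has 1 ISRE core, and Ifitm1 has no match.

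Levels were compared between genes as log2 values per kilobase of transcript, ranked among genes past the filter of the same library. Ifitm2 stood high in all 8 tables, at percentiles 95.3 to 98.8. Bst2 ranged from 80.5 to 99.4 and Ifitm3 from 67.04 to 99.3. Ifi27 was between percentiles 76.4 and 98.8 in tumors, B16F10 cultures and MC38 cells, but between 44.5 and 61.8 in MEFs. Ifitm1 passed the filter only in tumors, at percentiles 20.1 to 21.4, and in MC38 cells, at 81.8 to 86.4. In the BD98 experiment Ifitm1 had 0 counts in all 6 libraries; 3 counts, the floor used here, would be 0.127 to 0.230 CPM (counts per mega-count of the library) in these libraries. In the other B16F10 cultures Ifitm1 was listed at 0 or below, and in MEFs at 1.02 to 1.04.

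**Figure D2:**
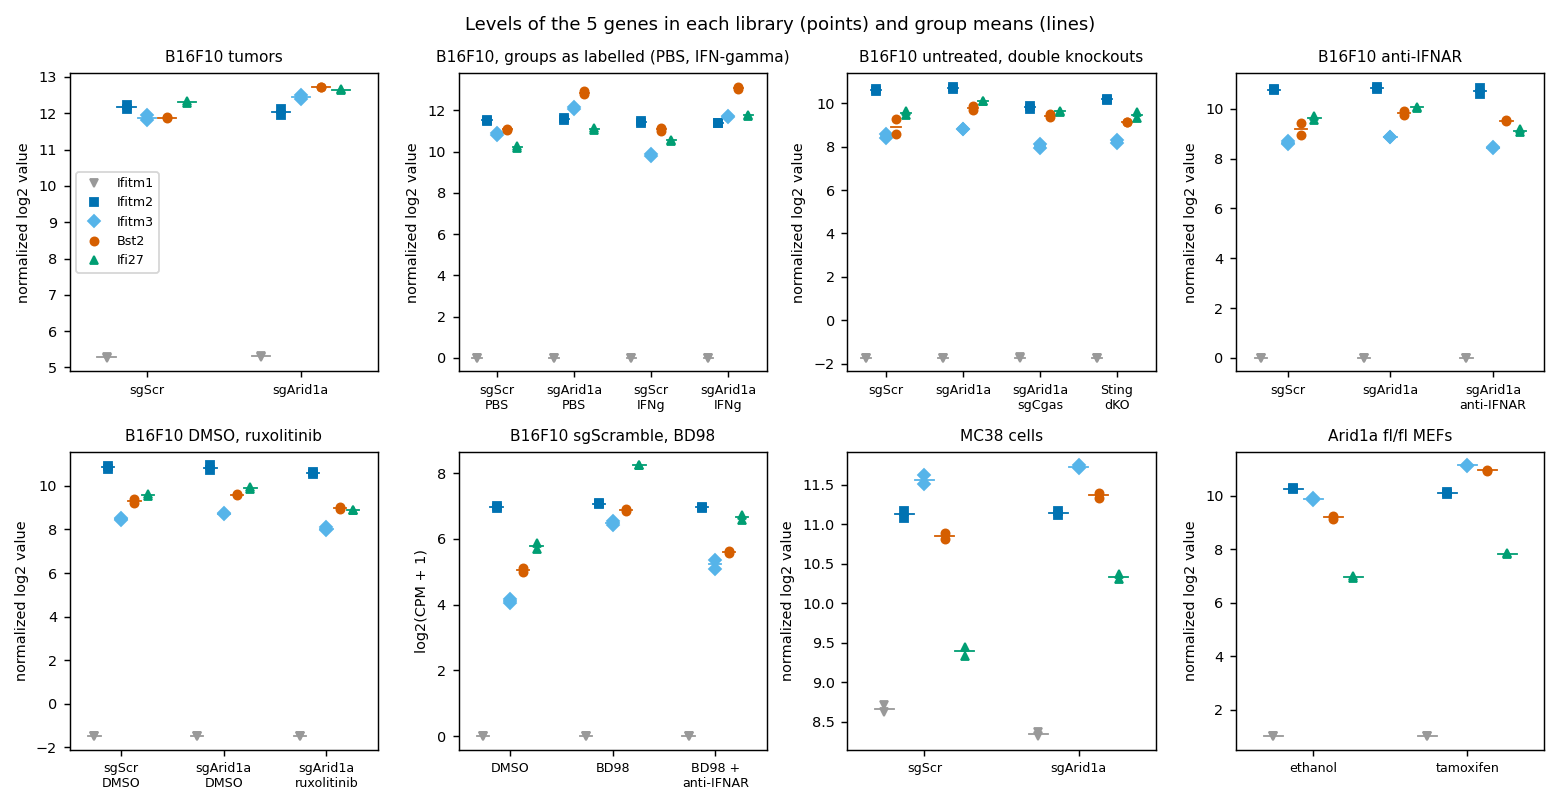
Each library's value (points) and the group mean (short lines) for the 5 genes in 8 gene tables; the vertical axis is the deposited normalized log2 value, or log2(CPM + 1) in the BD98 experiment, and each panel has its own scale. The same untreated libraries appear in both the double-knockout and the anti-IFNAR panels. Ifitm2 varies little within each panel except in the double-knockout panel, while Bst2, Ifitm3 and Ifi27 shift between groups.

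Libraries had 8.68 M to 38.8 M (mega) reads in total, per the table headers. Against its control, Arid1a itself differed by -0.32 ± 0.07 (standard error, as throughout) on the log2 scale in sgArid1a tumors, -0.58 ± 0.11 in untreated, -0.26 ± 0.12 in DMSO-treated and -0.14 ± 0.03 in MC38 cells, and -0.43 ± 0.09 in tamoxifen-treated MEFs; a guide edits the gene and need not remove its RNA. All but the DMSO difference (adjusted p = 0.23, limma) passed the test. In the libraries labelled as double knockouts, Arid1a was higher than in sgArid1a, by 0.47 ± 0.11 for Cgas and 0.36 ± 0.11 for Sting (limma, adjusted p = 0.0060 and 0.024). Their labels also name sgArid1a, and why their Arid1a RNA was higher was not tested. From sgScramble it differed by -0.11 ± 0.11 and -0.22 ± 0.11 in these libraries (adjusted p = 0.45 and 0.12). The 7 melanocytic markers passed the filter in every B16F10 table, and 5 of 7 fibroblast markers did in MEFs. None of 6 epithelial markers passed it in MC38 cells.

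In tumors the question was whether losing Arid1a altered these genes in a growing melanoma. Bst2 stood at 11.86 and 11.88 in the 2 sgScramble tumors and at 12.73 and 12.73 in the 2 sgArid1a tumors. The groups did not overlap, and Bst2 rose by 0.86 ± 0.06, or 1.81-fold (adjusted p = 1.4e-07). Ifitm2 did not follow: it was at 12.22 and 12.12 against 11.94 and 12.12, groups that overlap, with a difference of -0.14 ± 0.07 (adjusted p = 0.11). Without sgScramble replicate 2, or without sgArid1a replicate 2, the Ifitm2 difference was -0.19 or -0.23 and passed the test (adjusted p = 0.042 and 0.039), but without sgArid1a replicate 1 it was -0.05 (adjusted p = 0.70). Ifitm1 was at 5.29 and 5.27 in sgScramble and 5.29 and 5.33 in sgArid1a tumors, a difference of 0.03 ± 0.06 (adjusted p = 0.68). So 1 of 3 tested members was called, where 54.0% of all 13895 genes tested were called. Of the members without a test, Ifitm3 went from 11.94 and 11.82 to 12.38 and 12.51, a difference of 0.56 ± 0.07. Ifi27 went from 12.33 and 12.27 to 12.64 and 12.66, a difference of 0.35 ± 0.06. Neither pair of groups overlapped.

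Among 45 listed type I interferon-stimulated genes (ISGs), 43 rose and none fell in the sgArid1a tumors, with a median difference of 0.87 against -0.02 over all genes tested. The list was chosen with earlier results of these data known, so its counts here and below are descriptions. The difference of Bst2 lay near the middle of that list, with 24 of 45 above it, while 40 of 45 were above Ifi27 and 45 of 45 above Ifitm2. In the interferon pathway, none of 8 listed ligands passed the filter, 1 of 4 receptors and 1 of 3 kinases rose, all 5 transcription factors rose, and 2 of 3 inhibitors rose, led by Usp18 at 1.41 ± 0.08 (adjusted p = 5.4e-08). Of the other entry-restricting or related genes, 6 of 8 tested rose and 1 fell. Markers of other cell types moved in the same tumors. For macrophages, 7 of 8 markers were higher, with a median of 1.17, and their summed level went from 13.2 to 13.3 in sgScramble to 14.3 to 14.4 in sgArid1a tumors, with no marker at 0. The leukocyte marker Ptprc went from 8.33 to 8.48 to 9.59 to 9.66, all 6 endothelial markers were higher with a median of 0.50, and all 5 muscle markers with a median of 2.91. Of 3 markers of plasmacytoid dendritic cells, 1 passed the filter and it was not called. T cell and NK markers were higher too (3 of 3 tested in each), as were 3 of 4 dendritic markers. Other sets were lower or mixed: both erythroid markers fell, with a median of -1.43, neutrophil markers had 2 lower and 1 higher, melanocytic markers 3 lower and 1 higher of 7, and fibroblast markers 3 lower and 3 higher of 7. The summed melanocytic level went from 19.65 to 19.68 in sgScramble to 19.22 to 19.24 in sgArid1a tumors. Their part in the tumor values of Bst2, Ifitm3 and Ifi27 was not tested, and in bulk tumors a change in the number of cells of a type and in RNA per cell cannot be told apart.

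In untreated B16F10 cultures, where Ptprc and 6 of 8 macrophage markers were listed at 0 or below in every library, Bst2 was at 8.58 and 9.27 in sgScramble and 9.88 and 9.71 in sgArid1a. Replicate 1 of sgScramble, at 8.58, had 8.68 M reads, the fewest of any library here, against 22.8 M for replicate 2. Bst2 rose by 0.87 ± 0.17, or 1.83-fold (limma, adjusted p = 0.0052). The size rested on single libraries: it was 0.52 without sgScramble replicate 1 and 1.22 without sgScramble replicate 2, both still called, and the call was lost without sgArid1a replicate 1 (0.79, adjusted p = 0.063). Ifitm2 was at 10.65 and 10.58 against 10.65 and 10.76, a difference of 0.09 ± 0.09 (adjusted p = 0.59). So 1 of 2 tested members was called, where 11.8% of 11604 genes were. Ifi27 was at 9.44 and 9.64 against 10.12 and 10.09, a difference of 0.56 ± 0.11. Ifitm3 was at 8.58 and 8.41 against 8.80 and 8.81, a difference of 0.31 ± 0.11. Groups of Ifi27 and Ifitm3 did not overlap. Beside them, 26 of 35 ISGs tested rose with a median of 0.52, and in the pathway 4 of 5 factors and 1 of 2 inhibitors tested rose while no receptor or kinase was called.

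In the DMSO cultures the same guides gave smaller differences. Bst2 was at 9.21 and 9.39 in sgScramble and 9.56 and 9.63 in sgArid1a, which do not overlap, and its difference of 0.30 ± 0.09 missed the threshold (adjusted p = 0.062). It passed without sgScramble replicate 2 (0.39, adjusted p = 0.0069). Ifitm2 differed by -0.01 ± 0.10 (adjusted p = 0.95). With limma 0 of 2 tested members were called, against 7.88% of 11783 genes; 1 had an unadjusted p under 0.05, and limma without a trend also called 0. The differences of Ifi27 and Ifitm3 were 0.32 ± 0.08 and 0.24 ± 0.08. Of 37 ISGs tested, 20 rose and none fell, with a median of 0.24.

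MC38 cells were the only culture with a measurable level of all 5 genes. Here the members parted. Bst2 was at 10.89 and 10.81 in sgScramble and 11.39 and 11.34 in sgArid1a cells, and rose by 0.51 ± 0.03, or 1.43-fold (adjusted p = 2.9e-14). Ifitm1 fell, from 8.71 and 8.62 to 8.32 and 8.36, a difference of -0.33 ± 0.03 (adjusted p = 3.8e-10). Ifitm2, at 11.17 and 11.08 against 11.11 and 11.17, differed by 0.01 ± 0.03 (adjusted p = 0.84). So 2 of 3 tested members were called, in opposite directions, where 21.2% of 11516 genes were called. Ifi27 was at 9.45 and 9.33 against 10.31 and 10.37, a difference of 0.95 ± 0.03, above that of all 42 ISGs tested. Ifitm3 was at 11.62 and 11.51 against 11.71 and 11.75, a difference of 0.17 ± 0.03, with 29 of 42 ISGs above it. Of the ISGs 40 rose, with a median of 0.31, and all 5 pathway factors rose. The values of low and middling genes are drawn together in these tables, so sizes understate such genes, and sizes of other genes can be smaller too. The authors' deposited table gives a log2 fold change of -0.94 for Ifitm1 and 1.66 for Ifi27. For Bst2, at percentiles 97.6 to 98.7, it gives 0.70, also larger than the difference here.

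MEFs had the largest Bst2 difference among the Arid1a comparisons outside the IFNγ experiment. Bst2 went from 9.15 and 9.24 after ethanol to 10.94 and 10.97 after tamoxifen, a rise of 1.76 ± 0.06, or 3.39-fold (adjusted p = 3.4e-08). Ifitm2 went from 10.24 and 10.29 to 10.09 and 10.13, groups that do not overlap, but its difference of -0.16 ± 0.06 did not pass the test (adjusted p = 0.11). With the replicate number as a block in the limma fit, the same difference was called (adjusted p = 3.8e-06). Without the block 1 of 2 tested members was called, against 9.71% of 12184 genes. Ifitm3 went from 9.86 and 9.91 to 11.12 and 11.15, a difference of 1.25 ± 0.06. Ifi27 went from 6.95 and 7.02 to 7.83 and 7.86, a difference of 0.86 ± 0.05. The authors' deposited table gives larger log2 fold changes, 2.87 for Ifi27, 1.98 for Ifitm3 and 2.93 for Bst2. Here 37 of 38 ISGs tested rose with a median of 0.80, 2 of them by more than Bst2, and all 5 pathway factors rose.

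**Figure D3:**
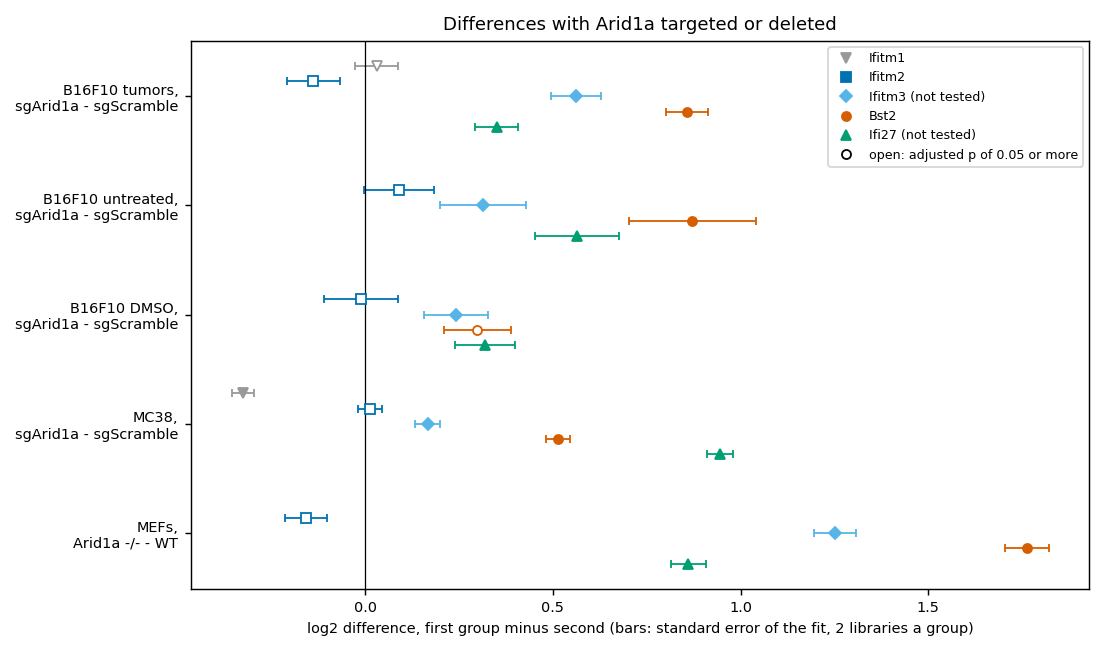
Log2 difference (horizontal axis) of each gene between Arid1a-targeted or Arid1a -/- libraries and their controls, with standard errors of the fit, in 5 comparisons of 2 against 2 libraries; open symbols are tested genes that were not called. Bst2 lies right of 0 in all 5, from 0.30 to 1.76, Ifitm2 stays between -0.16 and 0.09, and Ifitm1 is left of 0 in MC38 cells.

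In the IFNγ experiment the data went against the labels. Arid1a was at 12.42 and 12.40 (sgScramble) and 12.25 and 12.40 (sgArid1a) in libraries labelled PBS, and at 12.15 or lower in the 4 labelled IFNγ, so it separated by the treatment label and not by the guide label. Irf1, a factor that IFNγ induces, was at 12.53 and 12.34 in libraries labelled sgArid1a with PBS and at 13.04 and 12.97 in those labelled sgArid1a with IFNγ. In libraries labelled sgScramble it was at 9.81 and 9.81 with PBS and at 10.13 and 10.07 with IFNγ. No effect of a guide or of IFNγ is therefore read from this experiment.

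Bst2 split by the guide label there. It was at 11.05, 11.10, 11.16 and 10.99 in the 4 libraries labelled sgScramble and at 12.94, 12.77, 13.14 and 13.04 in the 4 labelled sgArid1a. The difference between libraries labelled sgArid1a and sgScramble was 1.78 ± 0.06 among those labelled PBS (adjusted p = 4.0e-13; 2.72% of 12357 genes called) and 2.02 ± 0.06 among those labelled IFNγ (adjusted p = 4.9e-14; 6.73% called). Between libraries labelled IFNγ and PBS, Bst2 differed by -0.00 ± 0.06 among those labelled sgScramble (adjusted p = 0.99; 35% called) and by 0.23 ± 0.06 among those labelled sgArid1a (adjusted p = 0.0043; 42.3% called). The last call was lost without the replicate 2 labelled sgArid1a with PBS (0.15, adjusted p = 0.11) or the replicate 1 labelled sgArid1a with IFNγ (0.18, adjusted p = 0.073). The interaction of both labels was 0.23 ± 0.08 (adjusted p = 0.30), and limma called 0 of 2 tested members for it, against 0.882% of genes, with 1 at an unadjusted p under 0.05 and 0 called without a trend. Without the replicate 1 labelled sgScramble with IFNγ, the Bst2 interaction was 0.32 and was called (adjusted p = 0.020).

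Ifitm3 and Ifi27 both stood higher in libraries labelled sgArid1a, but took opposite directions between the treatment labels. Ifitm3 was at 10.80 and 10.92 in libraries labelled sgScramble with PBS, and at 9.89 and 9.80 in those labelled sgScramble with IFNγ. In libraries labelled sgArid1a it was at 12.16 and 12.08 with PBS and at 11.68 and 11.72 with IFNγ. Its differences between libraries labelled IFNγ and PBS were thus -1.02 ± 0.05 and -0.42 ± 0.05, each below those of all 40 ISGs tested. Ifi27 was at 10.18 and 10.25 (sgScramble) and 11.12 and 11.03 (sgArid1a) in libraries labelled PBS, and at 10.56, 10.53, 11.80 and 11.71 in those labelled IFNγ. The corresponding differences of Ifi27 were 0.33 ± 0.05 and 0.68 ± 0.05, with 3 and 6 of 40 ISGs above it. Ifitm2 moved little: it was lower in libraries labelled sgArid1a with IFNγ than in those labelled sgArid1a with PBS, by -0.22 ± 0.05 (adjusted p = 0.0012), and its largest difference in the other label pairs was -0.08 ± 0.05 (sgScramble, IFNγ against PBS, adjusted p = 0.20). Without the replicate 1 labelled sgScramble with IFNγ that difference was -0.13 and was called (adjusted p = 0.034).

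Libraries labelled as double knockouts of Arid1a with Cgas or Sting were compared with untreated sgArid1a. As given above, Arid1a RNA was higher in them than in sgArid1a. Their cell line was also entered otherwise, though their titles name B16F10. An effect of losing Cgas or Sting1 therefore cannot be told apart from these differences. Ifitm2, which was not called between the 2 guides in these cultures, was lower in both double knockouts. Its values were 10.65 and 10.76 in sgArid1a. Libraries labelled Cgas double knockout had 9.73 and 9.89, and those labelled Sting double knockout 10.20 and 10.17. The differences were -0.89 ± 0.09 (adjusted p = 1.0e-05) and -0.52 ± 0.09 (adjusted p = 0.0011), and the groups did not overlap. Bst2 was at 9.88 and 9.71 in sgArid1a, 9.36 and 9.49 in libraries labelled Cgas double knockout, and 9.15 and 9.16 in those labelled Sting double knockout. It was lower by -0.64 ± 0.17 in the latter (adjusted p = 0.012), while -0.37 ± 0.17 in the former did not pass (adjusted p = 0.12). The authors' own test gave Bst2 adjusted p-values of 9.6e-09 for Sting and 0.00020 for Cgas, both under 0.05. The Sting call for Bst2 was lost without either library labelled Sting double knockout (adjusted p = 0.065 and 0.092) or without sgArid1a replicate 1 (0.094). Fitted with only the groups compared, the Cgas difference of Bst2 was called (adjusted p = 0.0033). So 1 of 2 tested members was called for Cgas, where 28.7% of genes were, and 2 of 2 for Sting, where 31.8% were.

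Ifitm3 was at 7.96 and 8.10 in libraries labelled Cgas double knockout and 8.32 and 8.15 in those labelled Sting double knockout, differences of -0.77 ± 0.11 and -0.57 ± 0.11 from sgArid1a. Ifi27 was at 9.60 and 9.64 and at 9.59 and 9.31, differences of -0.48 ± 0.11 and -0.65 ± 0.11. All 4 measurable members were thus lower than in sgArid1a, Bst2 not beyond the test for Cgas. Of 35 ISGs tested, 21 fell and none rose for Cgas (median -0.42), and 17 fell and 1 rose for Sting (median -0.28). Of 5 other entry-restricting or related genes tested, 1 fell and 1 rose for Cgas, and 1 fell and 0 rose for Sting. The gene that fell was Ifi27l2a, of the Ifi27 family, by 1.07 ± 0.12 for Cgas and by 1.09 ± 0.12 for Sting (adjusted p = 2.1e-05 and 1.6e-05). Tspan7 rose for Cgas, by 0.31 ± 0.10 (adjusted p = 0.038). Between the 2 guides Ifi27l2a was not called (0.24 ± 0.12, adjusted p = 0.23).

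Against untreated sgScramble, which the previous comparison of guides also used, Ifitm2 was lower too, by -0.80 ± 0.09 in libraries labelled Cgas double knockout (adjusted p = 2.1e-05) and by -0.43 ± 0.09 in those labelled Sting double knockout (adjusted p = 0.0026). Bst2 was still higher than sgScramble for Cgas, by 0.50 ± 0.17 (adjusted p = 0.030), and differed by 0.23 ± 0.17 for Sting (adjusted p = 0.30). Both values hung on the spread of the sgScramble libraries: without sgScramble replicate 1 they were 0.15 (adjusted p = 0.28) and -0.12 (adjusted p = 0.39). Without sgScramble replicate 2 the Cgas difference was 0.85 and still called. The Cgas call was also lost without either library labelled Cgas double knockout (adjusted p = 0.067 and 0.14), and the Sting difference of 0.58 was called without sgScramble replicate 2 (adjusted p = 0.00085). Thus 2 of 2 and 1 of 2 tested members were called, against 41.6% and 42.3% of genes. The authors' own test gave Bst2 adjusted p-values of 0.11 for Cgas and 0.80 for Sting, neither under 0.05. Ifitm3 differed from sgScramble by -0.46 ± 0.11 and -0.26 ± 0.11, and Ifi27 by 0.08 ± 0.11 and -0.09 ± 0.11, with overlapping groups for Ifi27.

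The untreated libraries of both guides in the anti-IFNAR experiment were the same ones compared with the double knockouts. Their labels give no time, and no sgArid1a group had a control antibody, so time and added antibody were not matched. Among the members, Ifi27 differed most between sgArid1a cells given anti-IFNAR for 72 h and untreated sgArid1a cells. Its value was 10.08 and 10.06 in untreated sgArid1a and 9.20 and 9.06 with anti-IFNAR, a difference of -0.94 ± 0.08, below that of all 35 ISGs tested, whose median was -0.17. Ifitm3 was at 8.87 and 8.88 against 8.45 and 8.44, a difference of -0.43 ± 0.07, with 1 of 35 ISGs below it. Bst2 was at 9.90 and 9.77 against 9.55 and 9.51, which do not overlap, yet its difference of -0.31 ± 0.13 did not pass (adjusted p = 1.0). Ifitm2 differed by -0.13 ± 0.08 (adjusted p = 1.0). With limma 0 of 2 tested members were called, 1 had an unadjusted p under 0.05, and limma without a trend called 0. Of 11686 genes 0.0171% were called. Among them was Irf9, part of the type I interferon complex, which fell by 0.60 ± 0.07 (adjusted p = 0.023). The authors' deposited table gives log2 fold changes of -1.44 for Ifi27, -0.75 for Ifitm3 and -0.46 for Bst2. Its adjusted p for Bst2, by the authors' own test, was 0.0019, under the 0.05 used here. Against untreated sgScramble, at 9.54 and 9.71 for Ifi27 and 8.71 and 8.59 for Ifitm3, the anti-IFNAR libraries differed by -0.49 ± 0.08 and -0.20 ± 0.07, below all 35 ISGs tested. Bst2 differed by 0.34 ± 0.13 in the other direction (adjusted p = 0.11), by 0.096 without sgScramble replicate 1 (adjusted p = 0.41) and by 0.58 without sgScramble replicate 2 (adjusted p = 5.6e-05). In this comparison 0 of 2 tested members were called by limma, with or without a trend, 1 had an unadjusted p under 0.05, and 12.7% of genes were called.

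Ruxolitinib, which acts below the receptor, was compared with DMSO in sgArid1a cells. Bst2 was at 9.56 and 9.63 with DMSO and 8.92 and 9.05 with ruxolitinib, and fell by 0.61 ± 0.09 (adjusted p = 0.011). Of 2 tested members 1 was called, where 26 of 11783 genes, or 0.221%, were called. The call was lost without DMSO replicate 1, DMSO replicate 2 or ruxolitinib replicate 1 (adjusted p = 0.17, 0.41 and 0.14). Ifitm2 was at 10.71 and 10.96 against 10.62 and 10.56, a difference of -0.25 ± 0.10 (adjusted p = 0.49). Ifi27 was at 9.93 and 9.86 against 8.91 and 8.89, a difference of -1.0 ± 0.08, below that of all 37 ISGs tested. Ifitm3 was at 8.70 and 8.73 against 7.95 and 8.12, a difference of -0.68 ± 0.08, with 1 of 37 ISGs below it. Of the ISGs 9 fell and none rose, with a median of -0.26, and 3 of 14 pathway genes tested fell, among them Irf9, by 0.74 ± 0.08 (adjusted p = 0.00079). The authors' deposited table gives log2 fold changes of -1.63 for Ifi27, -1.27 for Ifitm3 and -0.99 for Bst2. Adjusted p-values there, by the authors' own test, were 3.5e-14 for Bst2 and 0.033 for Ifitm2.

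With ruxolitinib these members lay below the sgScramble cells given DMSO. Bst2 was lower by -0.31 ± 0.09 (adjusted p = 0.035), Ifi27 differed by -0.69 ± 0.08 and Ifitm3 by -0.44 ± 0.08. For Ifi27 and Ifitm3 the difference was below that of all 37 ISGs tested, whose median was -0.05. Ifitm2 differed by -0.26 ± 0.10 (adjusted p = 0.093). Here 1 of 2 tested members was called, against 15.5% of genes. The authors' own test gave Bst2 an adjusted p of 0.054 for this comparison. The Bst2 call was lost without sgScramble replicate 2 or either ruxolitinib library (adjusted p = 0.063, 0.33 and 0.084) and with only the groups compared (0.076). Without sgScramble replicate 1, Ifitm2 was called (-0.34, adjusted p = 0.010), while without sgScramble replicate 2 it was -0.17.

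BD98 was given to sgScramble cells, and this table holds counts. Bst2 had 692 and 474 counts with DMSO and 1577 and 1654 with BD98, which are 5.00 and 5.11 against 6.90 and 6.86 as log2(CPM + 1). It rose by 1.86 ± 0.08, or 3.64-fold (edgeR, adjusted p = 5.5e-16). Ifitm3 had 344 and 240 counts against 1120 and 1339, a difference of 2.46 ± 0.11. Ifi27 had 1144 and 822 against 4032 and 4339, a difference of 2.47 ± 0.08. Ifitm2, with 2855 and 1731 against 1752 and 1928 counts in libraries of unequal depth, was at 7.01 and 6.95 against 7.05 and 7.08 and differed by 0.09 ± 0.07 (adjusted p = 0.32). So 1 of 2 tested members was called, against 49.9% of 12843 genes. Of 38 ISGs tested 37 rose and 1 fell, with a median of 2.18. Bst2 and Ifi27 were inside that range, with 21 and 15 ISGs above them. All 7 melanocytic markers fell with BD98, with a median of -1.48; their part in the members' values was not tested.

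Adding anti-IFNAR to BD98 lowered Bst2 to 844 and 1013 counts, or 5.63 and 5.56 as log2(CPM + 1), so that it fell by 1.30 ± 0.08 against BD98 alone (edgeR, adjusted p = 1.8e-11). Here 1 of 2 tested members was called, where only 192 genes, or 1.49%, were. Ifitm3 was at 693 and 731 counts and Ifi27 at 1821 and 2084, differences of -1.28 ± 0.10 and -1.60 ± 0.08. Ifitm2 differed by -0.10 ± 0.07 (adjusted p = 0.62). Of the ISGs 35 of 38 fell, with a median of -1.37, and 4 of 5 pathway factors and 1 of 3 inhibitors fell while no receptor or kinase was called. The levels did not return to those of DMSO. With both agents Bst2 stayed 0.56 ± 0.09 above DMSO (edgeR, adjusted p = 6.1e-06; 1 of 2 tested members called against 48.2% of genes), and Ifitm3 and Ifi27 differed from DMSO by 1.18 ± 0.11 and 0.87 ± 0.08.

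**Figure D4:**
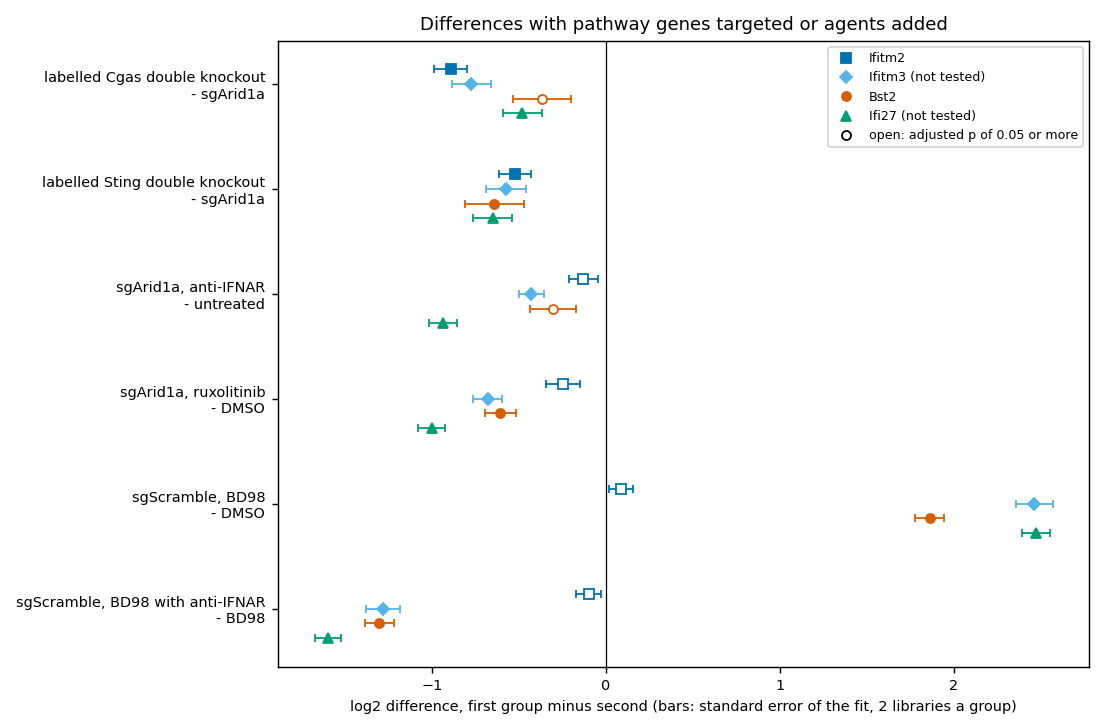
Log2 difference (horizontal axis), first group minus second, with standard errors of the fit, for libraries labelled as double knockouts, anti-IFNAR, ruxolitinib and BD98, 2 libraries a group; open symbols are tested genes that were not called. Bst2, Ifitm3 and Ifi27 lie left of 0 in the double knockouts and with anti-IFNAR or ruxolitinib and between 1.86 and 2.47 for BD98 against DMSO, while Ifitm2 is called only in the double knockouts.

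The place of each gene among the listed ISGs varied with the comparison. Bst2 stood near the top of the list in MEFs (2 of 38 above it) and in untreated cultures (4 of 35), and near the middle in tumors and with BD98. Ifi27 was above all 42 in MC38 cells and below all of those tested with anti-IFNAR or ruxolitinib in sgArid1a cells. With anti-IFNAR after BD98 it was not apart, with 15 of 38 ISGs below it. The places also depend on level where low values are drawn together, as with anti-IFNAR alone and with ruxolitinib, while the BD98 differences came from counts. In MEFs, for which low values are drawn together too, the authors' deposited table gives Ifi27 a log2 fold change of 2.87, near the 2.93 of Bst2. The places are descriptions, because the responses of Ifi27 and Ifitm3 were among the values that selected the set. The ISG list was also chosen with earlier results of these data known.

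**Figure D5:**
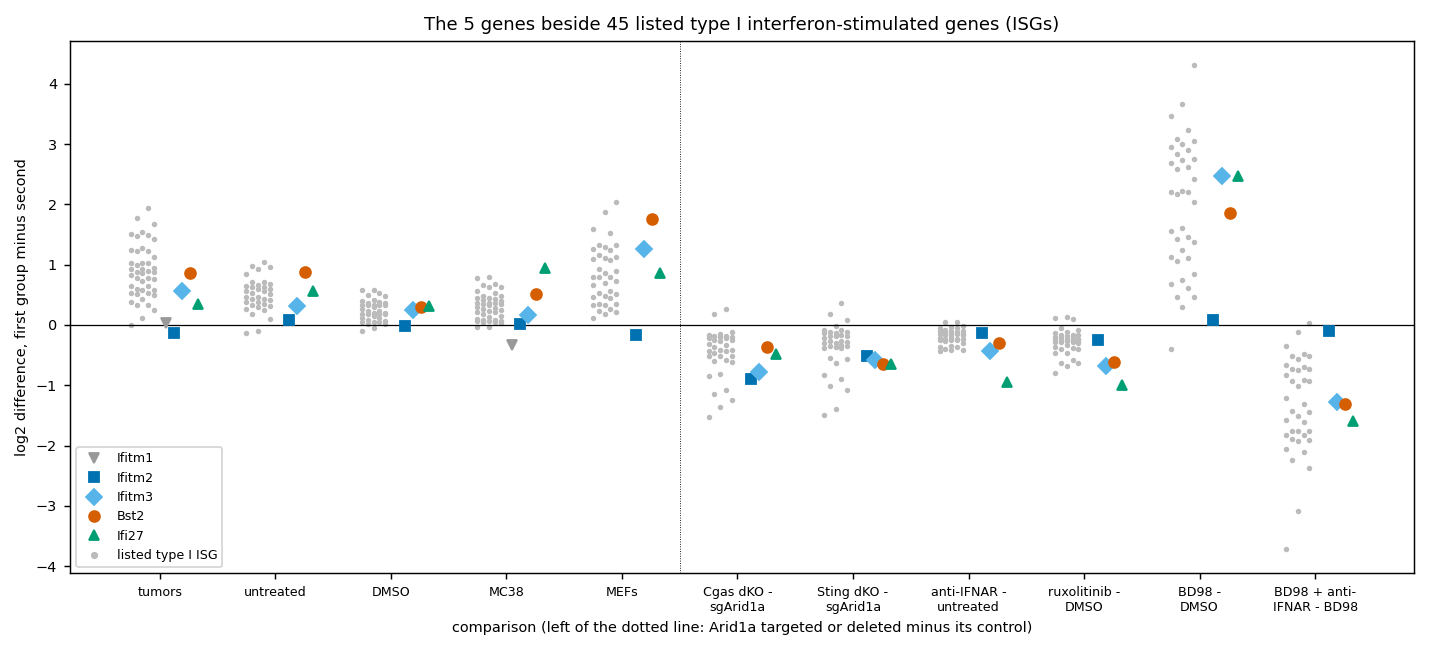
Log2 differences (vertical axis) of the 5 genes (colored symbols) beside those of the listed type I ISGs that passed the filter (grey points) in 11 comparisons. Ifi27 tops the list in MC38 cells and lies under it with anti-IFNAR and ruxolitinib, and Ifitm2 lies at or near the lower edge of the list in the 5 Arid1a comparisons.

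For the 42 libraries, each value was taken as its deviation from the mean of its table, except with anti-IFNAR alone. Those libraries were taken as deviations from their untreated libraries, plus the offset of the untreated libraries from the mean of the double-knockout table. Across the 42 libraries, Bst2 tracked Ifitm3 (Pearson r = 0.872) and Ifi27 (r = 0.842), and Ifitm3 tracked Ifi27 (r = 0.803). Ifitm2 did not track Bst2 (r = 0.00), Ifi27 (r = 0.07) or Ifitm3 (r = 0.24). Among 10123 genes past the filter in all tables, the patterns nearest to Bst2 were those of Parp10 (r = 0.959), Irf9 (0.944) and Ifi35 (0.939). Those nearest to Ifi27 were Ddx58 (0.914), Trim25 (0.913) and Irf9 (0.911), and those nearest to Ifitm3 were Parp3 (0.884), Trim25 (0.878) and Parp10 (0.872). Across the 42 libraries, those nearest to Ifitm2 were 1810037I17Rik (0.910), Ybx1 (0.889) and Gm15421 (0.882), none of them among the 45 listed ISGs. Most of these neighbours changed without the IFNγ experiment, in 34 libraries. Those nearest to Ifitm3 were then Isg15 (0.952), Ifit1 (0.950) and Ifit3 (0.926), and to Bst2 Trim25 (0.955), Isg15 (0.938) and Usp18 (0.936). For Ifi27 they were Irf9 (0.941), Trim25 (0.904) and Ifitm3 (0.898), and for Ifitm2 1810037I17Rik (0.928), Tpi1 (0.899) and Snx4 (0.898). Libraries of a table share their normalization and depth range, and 2 libraries share each condition, so these correlations are descriptions.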

How the data were processed

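The authors aligned reads to the mouse genome (GRCm38/mm10) with STAR 2.5.3a and used HOMER, per the submitters' processing notes. Per the file headers, exon reads were counted per gene without a strand option. Values in the BD98 table are raw counts, per the file headers. In 7 further tables they are log2 values that the authors normalized within each table, with low values drawn together, by a step not given in the sources used here. The log2 fold changes and adjusted p-values of the authors' deposited tables were copied and not retested.

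Counts were tested with edgeR 4.0.16 (TMM, quasi-likelihood, filterByExpr) and are shown as log2(CPM + 1). Log2 values were tested with limma 3.58.1 with a trend, keeping genes with a mean of at least 4, in R 4.3.3. All groups of a table entered 1 fit, p-values were adjusted over all genes by Benjamini-Hochberg, and genes with adjusted p under 0.05 were called. Groups came from the labels. Both tests were tested on simulated data. Alternatives were DESeq2 1.42.0, other filters and scalings, fits on fewer groups, a replicate block and leaving out each library. Tests stayed within tables, and 2 columns of per-sample values that match no sample used here were left out.

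The members and lists were chosen with earlier results of these data known. Named are the 5 members, Arid1a and marker or label-check genes, the pathway or family genes with the most extreme differences, and the 3 genes most like each member. Depth is given in the report, and the 2 libraries of a group limit precision.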

Additional observations from a re-analysis of the deposited data

Results flagged for a closer look

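Ifitm2 took opposite directions in 2 Arid1a comparisons, with both libraries of a group on the same side of the other group in each. Its log2 difference was 0.0899 ± 0.09 in untreated B16F10 cultures (sgArid1a minus sgScramble) and -0.159 ± 0.06 in MEFs (Arid1a -/- minus WT). Neither passed the limma test without a replicate block (adjusted p = 0.59 and 0.11), and the difference between them was not tested. With the block the MEF difference passed, and same-numbered MEF libraries did deviate alike over genes (correlation 0.69). In the untreated cultures the nearest libraries of the groups were at 10.6541 and 10.6549, and as normalized in the anti-IFNAR table the same libraries overlapped (10.75 to 10.81 for sgScramble and 10.81 to 10.89 for sgArid1a).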

How the results depend on the processing

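With 2 libraries a group, leaving out a library was the alternative that most often moved a call. The number of tested members called then ranged from 1 to 2 in tumors, 0 to 1 between libraries labelled IFNγ and PBS with sgScramble, 1 to 2 with sgArid1a and 0 to 1 for their interaction. It ranged from 0 to 1 in untreated and in DMSO cultures, 1 to 2 for the Sting double knockout against sgArid1a and for either double knockout against sgScramble, 0 to 1 for anti-IFNAR against sgScramble, 0 to 1 for ruxolitinib against DMSO and 0 to 2 against sgScramble. Bst2 then ranged from -0.0888 to 0.0874 between libraries labelled sgScramble with IFNγ and PBS, and from -0.121 to 0.576 for the Sting double knockout against sgScramble. Ifitm2 ranged from -0.172 to 0.0469 for anti-IFNAR against sgScramble, -0.132 to 0.110 in DMSO cultures, -0.0432 to 0.0198 for BD98 with anti-IFNAR against DMSO, and -0.0324 to 0.0564 in MC38 cells. With libraries set to the same median, 1 member was called in DMSO cultures, where Ifitm2 was 0.0045, and Bst2 was 0.0147 between the libraries labelled sgScramble. With only the groups compared, 2 members were called for the Cgas double knockout against sgArid1a, 1 against sgScramble and 0 for ruxolitinib against sgScramble. The cause of these moves was not tested beyond the fewer libraries fitted. No call on a member changed with limma without a trend, other filters, DESeq2, its size factors in edgeR or limma on log2 CPM.

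The labels do not say whether libraries with the same replicate number were paired. Over 21 pairs of groups the correlation of same-numbered deviations ran from -0.51 in tumors to 0.69 in MEFs, with 6 over 0.1. In both MEF groups replicate 1 also had more reads than replicate 2. For MEFs a pairing by number and this shared difference in reads cannot be told apart, and the fit without the block leaves both out. Under the replicate block 2 members were called in MEFs, where Ifitm2 was -0.159 (adjusted p = 3.8e-06), and 1 for the Cgas double knockout against sgScramble without the Sting libraries, whose columns carry no number.

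Counts of all genes called moved more. With only the groups compared they were 642 (from 1372) in untreated cultures, 5135 (from 3329) for the Cgas double knockout against sgArid1a, 18 (from 2) and 970 (from 1487) for anti-IFNAR against untreated sgArid1a and sgScramble, and 89 (from 26) and 1085 (from 1828) for ruxolitinib against DMSO in sgArid1a and sgScramble. The block gave 5013 (from 1183) in MEFs and 355 (from 192) for BD98 with anti-IFNAR against BD98, which no filter took to 343. Leaving out a library gave 451 to 2840 in untreated and 182 to 3240 in DMSO cultures. It also gave 260 to 3827 (from 1487) for anti-IFNAR and 476 to 3751 (from 1828) for ruxolitinib against sgScramble, 0 to 1 (from 2) and 4 to 18 (from 26) for the same agents in sgArid1a, and 86 to 810 (from 192) for BD98 with anti-IFNAR against BD98. Other ranges were 1468 to 2130 (from 3329) and 1610 to 3072 (from 3688) for the Cgas and Sting double knockouts against sgArid1a, 2782 to 5444 (from 4826) and 3070 to 5184 (from 4909) against sgScramble, and 1156 to 2274 (from 2443) in MC38 cells. Between libraries labelled by guide they were 208 to 241 (from 336) with PBS, 488 to 1597 (from 832) with IFNγ and 57 to 881 (from 109) for the interaction. The percentages of genes called in these comparisons are therefore loose.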
